A study of Mus musculus with 18 samples.

Results

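Replication-dependent histone genes encode the core histones H2A, H2B, H3 and H4 and the linker histone H1 that package newly copied DNA. In the deposited gene counts, 67 of 55536 genes with a GENCODE M21 identifier had a symbol starting with Hist1h, Hist2h, Hist3h or Hist4h and a protein-coding annotation. These were 6 H1, 18 H2A, 18 H2B, 12 H3 and 13 H4 genes, and 3 histone pseudogenes were left out. The counts came from 18 RNA sequencing libraries of CD8+ T cells from mouse spleen and lymph nodes, all of the genotype OT-I, a T cell receptor transgene specific for the ovalbumin peptide SIINFEKL. The groups were 2 Tra2bKO libraries at day 4, 8 scrambled control libraries at day 4 and 8 naive libraries at day 0. Cells of both day 4 groups had been stimulated with SIINFEKL together with antibodies against OX40 and 41BB, 2 costimulatory receptors of T cells. The labels do not say how Tra2b was knocked out, nor whether the libraries of a group came from separate mice, and the p-values thus speak to differences among these libraries, whose spread may be only technical.

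These genes are transcribed mainly in S phase, when DNA is copied, under the control of NPAT and its partner FLASH (encoded by Casp8ap2). Unlike most mRNAs, their transcripts normally end just after a conserved stem-loop and carry no poly(A) tail. The stem-loop binds SLBP, and the U7 snRNP, with the proteins LSM10 and LSM11, directs the cut. A minority of histone transcripts are extended past the stem-loop and polyadenylated, as described in human differentiated cells. The libraries were made, per the labels, with a low-input kit that copies polyadenylated RNA. The values below therefore describe the histone transcripts that this kit captured, and how much of each gene's tailless mRNA was copied was not measured. In bulk samples, fewer cells in S phase and less histone RNA per cell cannot be told apart.

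The Hist1 cluster on chromosome 13 (GRCm38, 21715763 to 23934851) held 54 of the 67 genes. The Hist2 cluster on chromosome 3 (96219865 to 96270132) held 10, the Hist3 pair lay on chromosome 11 (58948920 to 58956830) and Hist4h4 on chromosome 6 (136801553 to 136804415). In the annotation, 62 genes had 1 exon and 62 had 1 transcript. A match to the histone stem-loop consensus, 16 bases long, followed the stop codon in an annotated transcript of 46 genes, 21 to 58 bases after it. The form with TTTC as the loop between the arms GGCTCT and AGAGCC was found in 26 genes of the H1, H2A, H2B and H3 classes. The 12 H4 genes with a match had other arms, and 7 of them shared 1 form. The last 14 bases before the stem-loop and the stem-loop itself (in capitals) are shown for the most abundant H2A gene, for other leading members and for 3 members that did not follow the rest, from the GENCODE M21 transcripts, 5′ to 3′.
Hist1h2ap: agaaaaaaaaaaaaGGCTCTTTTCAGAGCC
Hist1h2ae: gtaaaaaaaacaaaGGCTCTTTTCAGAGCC
Hist1h2ag: tgatcgccaacaaaGGCTCTTTTCAGAGCC
Hist1h1e: cccaacaacccaaaGGCTCTTTTCAGAGCC
Hist1h2bj: acaccaaatccaaaGGCTCTTTTCAGAGCC
Hist1h3b: aactggaacccaaaGGCTCTTTTCAGAGCC
Hist1h4d: acccaaaaaccaaaGGCCCTTTTCAGGGCC
Hist1h4i: caatgctacttaaaGGCCCTTTTTAGGGCC
Hist1h1c: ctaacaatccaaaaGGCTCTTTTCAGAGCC
Hist3h2a: ttacagacaccaaaGGCTCTTTTCAGAGCC

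Hist1h2ap and Hist1h2ao, its near-identical copy, carry a run of 12 A directly before the stem-loop. Of the 20 bases before the stem-loop, 16 were A in these 2 genes, 13 in Hist1h2ae, 7 in Hist1h2ag and 6 in Hist1h4i. The median over the 46 genes was 8. Across these 46 genes this A content and the control level per kb of exon had a Spearman rho of 0.51, and within classes 0.79 across the 11 H2A genes, 0.57 across 9 H3 genes, 0.43 across 12 H4 genes and 0.12 across 10 H2B genes. These values are descriptions without a test, since the genes share libraries and some share nearly all of their sequence. Single genes departed from the trend. Hist1h2ag, with 7 A, had a higher control level per kb of exon than Hist1h2ae, with 13. Hist1h4i and Hist1h4n, with 6 each, came next to Hist1h4d, with 9, among the H4 genes. Where an annotated 3′ end lies was also unequal among the 62 genes with 1 transcript. It lay within 100 bases of the stem-loop in 22 genes and farther downstream in 21. In 15 genes no 3′ UTR was annotated, and in 4 the 3′ UTR held no match. A poly(A) signal, AATAAA or ATTAAA, was present in the last 50 bases of an annotated transcript of 17 genes. Hist1h4i ends 330 bases after its stem-loop with such a signal, and Hist3h2a 1643 bases after it.

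Promoters, from 250 bases before to 50 bases after the start, were found for 62 of the 67 genes in RefSeq (GRCm38.p6). CCAAT was present in all 51 windows of H1, H2A, H2B and H3 genes, but in 3 of 12 windows of H4 genes (25%), against 37.4% of all 32851 promoters in the table. The octamer ATTTGCAT was in 7 of 17 H2B and 7 of 18 H2A windows, in none of the H1, H3 or H4 windows, and in 1.74% of all promoters. TATAAA was in 8 of 12 H4 windows and 4 of 6 H1 windows (66.7% each), 11 of 18 H2A windows (61.1%), 8 of 17 H2B windows (47.1%) and 4 of 10 H3 windows, and in 13.6% of all promoters. In none of the 63 windows (1 gene had 2) did matches of different motifs overlap. All motifs were searched on both strands and at any position of a window, and their place relative to the start was not tested. Some H2A and H2B genes lie head to head, such as Hist1h2ap, on the minus strand up to 21833507, and Hist1h2br, on the plus strand from 21833743. Windows of such pairs can overlap, and 1 motif can then count for both genes. The counts are therefore not of independent windows. The promoters of Hist1h2ap, the most abundant member, and Hist1h4i, the single member called higher in Tra2bKO cells, are shown with these motifs in capitals.
Hist1h2ap, chr13:21833426-21833725, minus strand: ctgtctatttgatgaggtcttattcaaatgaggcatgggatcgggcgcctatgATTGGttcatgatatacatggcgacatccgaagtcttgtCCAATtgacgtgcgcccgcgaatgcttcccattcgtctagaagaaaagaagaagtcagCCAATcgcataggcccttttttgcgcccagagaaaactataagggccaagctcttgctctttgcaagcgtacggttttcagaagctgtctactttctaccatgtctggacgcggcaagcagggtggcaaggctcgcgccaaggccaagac
Hist1h4i, chr13:22041313-22041612, minus strand: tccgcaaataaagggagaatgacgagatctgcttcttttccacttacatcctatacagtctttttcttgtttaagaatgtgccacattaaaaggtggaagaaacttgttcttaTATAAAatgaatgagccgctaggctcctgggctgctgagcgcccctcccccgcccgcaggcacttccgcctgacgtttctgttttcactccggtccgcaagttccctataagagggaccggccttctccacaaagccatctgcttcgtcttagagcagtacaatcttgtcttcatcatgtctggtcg

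Total counts per library were between 68249844 and 93972513, and the 67 genes held a small part of them. Their share was 0.136 and 0.151% in the Tra2bKO libraries, between 0.212 and 0.297% in controls and between 0.0668 and 0.183% in naive libraries. Levels are given as CPM, counts relative to library size, scaled by TMM over all 18 libraries. Summed over the members, Tra2bKO libraries had 1466 ± 118 CPM (SD, n = 2), controls 2629 ± 235 CPM (SD, n = 8) and naive libraries 1073 ± 340 CPM (SD, n = 8). The Tra2bKO libraries, at 1382 and 1549 CPM, lay below all controls, and within the naive range of 653 to 1754 CPM. H2A genes held most of this signal, 78.3 ± 0.969% of member counts in Tra2bKO libraries, 81.6 ± 1.17% in controls and 78.3 ± 1.63% in naive libraries. H4 genes held 9.53, 6.87 and 8.40% in these groups, and H3 genes 2.02, 1.69 and 2.11%. A nucleosome holds the core histones in equal numbers, and these shares describe captured RNA only.

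**Figure D1:**
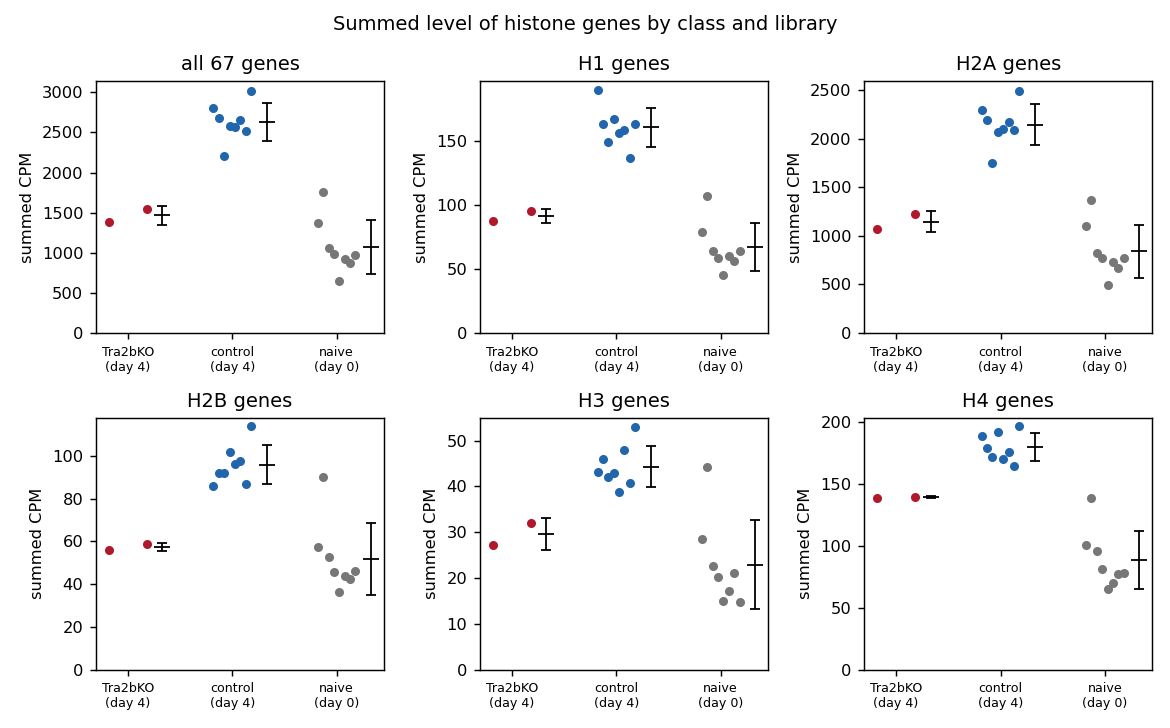
Summed CPM of all 67 histone genes and of each class (vertical axes, from 0) in every library (points) of the Tra2bKO, control and naive groups, with the mean and SD beside them. Both Tra2bKO libraries lie below every control in the sum of all members (1382 and 1549 CPM against 2208 to 3023 CPM) and among the naive libraries, of which naive 2 is the highest.

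A few H2A genes led the class. Per kb of exon, the control level of Hist1h2ap was 1528 ± 151 CPM per kb (SD, n = 8), that of Hist1h2ao 909 ± 72.7, that of Hist1h2ah 557 ± 54.9 and that of Hist1h2ag 523 ± 50.4. Hist1h2ah and Hist1h2ag did not differ beyond their spread, while the other neighbours in this order did. Hist1h2ap and Hist1h2ao have the same coding sequence and share over 92% of their windows of 75 bases with other histone genes (92.6 and 93.1%), so how reads were split between them is uncertain. This holds more widely. In 27 members over 50% of such windows were shared with another histone gene, and 40 members had a coding sequence at least 98% identical to another. The leading genes of other classes reached 111 ± 13.7 CPM per kb for Hist1h1b, 92.5 ± 6.15 for Hist1h4d, 24.3 ± 2.28 for Hist1h2bj and 9.88 ± 0.963 for Hist1h3b in the controls. Over all 18 libraries, 60 members averaged at least 1 CPM. Of the others, Hist1h2aa, a testis form of H2A, had 0 counts in every library, which allows up to 3 counts per library. The testis forms Hist1h1t and Hist1h2ba averaged 0.0234 and 0.253 CPM in the controls.

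**Figure D2:**
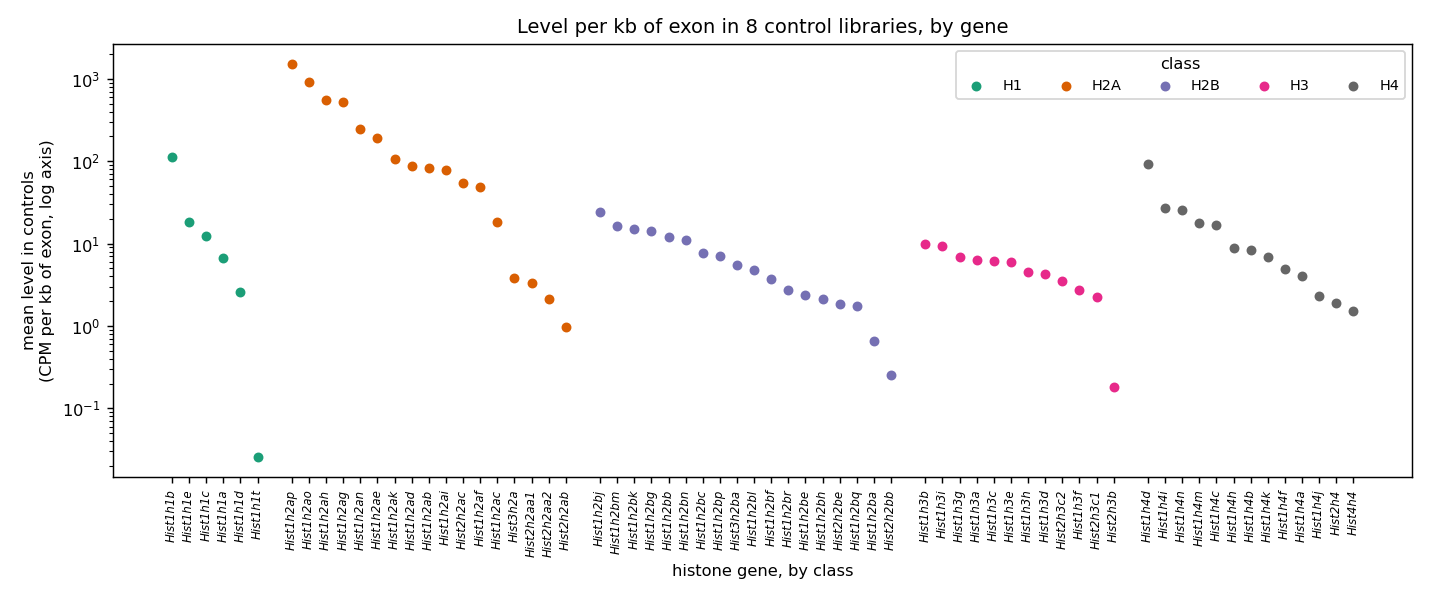
Mean level of each histone gene in the 8 controls, in CPM per kb of exon on a log axis, ordered within its class (Hist1h2aa, at 0, is not drawn). Hist1h2ap stands at 1528 CPM per kb, and the highest H3 gene, Hist1h3b, at 9.88 CPM per kb.

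By kind of annotated 3′ end, the median control level was 13.5 CPM per kb for the 22 genes that end within 100 bases of the stem-loop. It was 4.27 CPM per kb for the 21 genes that end farther downstream and 9.25 CPM per kb for the 15 without a 3′ UTR. The ranges overlapped, with 2.15 to 1528 CPM per kb in the first of these sets and 0.0257 to 189 in the second. A long annotated 3′ end that is little used lowers a level per kb, so these medians are a description of the annotation as much as of the RNA.

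Control cells at day 4 had higher histone transcripts of every class than naive cells. Of the 62 members tested, 54 rose, 2 fell and 6 were not called (edgeR's quasi-likelihood test, Benjamini-Hochberg adjustment over all genes, called under 0.05). The background was high, since 71.5% of the 17078 genes tested were called, 32.5% higher and 39% lower. The median log2 fold change (control minus naive) was 0.98 over the members and -0.08 over all genes. The groups did not overlap in 22 of the 62 members, where 42.3% of all genes tested did not overlap. Naive 2 and naive 1 had the highest naive sums, at 1754 and 1366 CPM. Without these 2 libraries, in a fit chosen after seeing the data, 57 members were called higher and the member median was 1.28. The share of all genes called in that fit is not given here.

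Among the linker histones, Hist1h1b had between 69.9 and 104 CPM (median 80.8) in controls, against 13.0 to 39.9 CPM (median 22.5) in naive libraries. The groups did not overlap, and the log2 fold change was 1.79 (SE 0.17, adjusted p = 3.9e-08, edgeR). Hist1h1a rose by 1.26, Hist1h1d by 1.37 and Hist1h1e by 1.05 on the log2 scale. Hist1h1c, one of the main linker histones of somatic cells, had 17.0 to 21.2 CPM in controls and 13.8 to 25.7 CPM in naive libraries, and was not called (log2 fold change 0.18, SE 0.11, adjusted p = 0.165, edgeR).

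In the H2A class 13 of 16 tested members rose, with log2 fold changes between 1.12 and 1.79. Hist1h2ap had 615 to 862 CPM (median 726) in controls and 163 to 456 CPM (median 256) in naive libraries, with no overlap (log2 fold change 1.38, SE 0.16, adjusted p = 3.82e-07, edgeR). The upper end of the H2A changes was Hist1h2ak at 1.79 (SE 0.36), which varied between libraries, from 14.1 to 63.7 CPM in controls and from 5.53 to 28.6 CPM in naive libraries, and whose ranges overlapped. Hist3h2a, the H2A gene of the small chromosome 11 cluster, fell. It had 6.81 to 9.75 CPM (median 8.27) in controls, against 14.4 to 19.98 CPM (median 17.5) in naive libraries. Every control was below every naive library, and the log2 fold change was -1.10 (SE 0.08, adjusted p = 1.59e-09, edgeR). Hist1h2ac, listed at 0 in control 3 and naive 5 but at 45.5 CPM or more in each other control, was not called (1.37, SE 0.77, adjusted p = 0.12, edgeR), nor was the low Hist2h2ab.

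In the H2B class 16 of 17 tested members rose, by 0.64 to 1.302. Hist1h2bm stood at 7.20 to 11.2 CPM (median 8.04) in controls and 1.76 to 6.91 CPM (median 3.16) in naive libraries, which did not overlap (log2 fold change 1.302, SE 0.23, adjusted p = 5.02e-05, edgeR). Hist1h2bp rose by 1.22 and Hist1h2bj, the most abundant H2B gene, by 0.91. Hist2h2be fell by 0.31 (SE 0.10, adjusted p = 0.00821, edgeR), with 3.63 to 5.67 CPM in controls and 5.11 to 6.75 CPM in naive libraries, and these ranges overlapped.

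In the H3 class 10 of 11 tested members rose, by 0.65 to 1.28, led by Hist1h3b, with 5.21 to 7.05 CPM in controls and 1.72 to 4.90 CPM in naive libraries. Hist2h3c1 was not called (log2 fold change 0.64, SE 0.40). In the H4 class 11 of 13 rose, by 0.44 to 1.301. Hist1h4d had 96.7 to 114 CPM (median 104) in controls and 29.6 to 66.2 CPM (median 38.8) in naive libraries, with no overlap (log2 fold change 1.301, SE 0.14, adjusted p = 1.46e-07, edgeR). Hist1h4m at 0.15 and Hist2h4 at 0.23 were not called.

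Tra2b, the targeted gene, encodes a splicing regulator. It had 361 and 370 CPM in the Tra2bKO libraries, 338 to 525.8 CPM (median 484) in controls and 248 to 352 CPM in naive libraries. The Tra2bKO libraries lay within the control range, and the log2 fold change against controls was -0.34 (SE 0.13), which did not pass (adjusted p = 0.0899, edgeR). Without control 2 it was -0.40 and passed (adjusted p = 0.00803, edgeR). Gene counts do not show whether the remaining transcripts were intact.

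Histone transcripts were lower in Tra2bKO cells than in control cells in every class. Of the 64 members tested, 38 fell, 1 rose and 25 were not called, and 63 of the 64 log2 fold changes were negative. Over all 18651 genes tested, 14.9% were called, 7.24% lower and 7.62% higher. The median log2 fold change (Tra2bKO minus control) was -0.75 over the members and -0.01 over all genes. In 46 of the 64 members the groups did not overlap, where 23.8% of all genes tested did not overlap. Of the 25 members that were not called, 9 had an unadjusted p under 0.05. The count of falls was 21 without Tra2bKO library 2, 27 without Tra2bKO library 1 and 20 with all 3 groups in one fit. Removing a trend of fold change on exon length and GC content gave 26 falls and a member median of -0.45. The share of all genes called in these other fits is not given here, so whether the histone calls changed beyond it is not shown.

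In the H1 class 4 of 5 tested members fell. Hist1h1d, at 8.05 and 8.86 CPM in Tra2bKO libraries against 14.2 to 21.1 CPM (median 19.7) in controls, had the largest decrease of the class (log2 fold change -1.16, SE 0.15, adjusted p = 0.00069, edgeR). Hist1h1b had 43.3 and 47.3 CPM in Tra2bKO libraries and 69.9 to 104 CPM in controls (-0.86, SE 0.13, adjusted p = 0.00154, edgeR). Hist1h1c had 11.03 and 11.25 CPM in Tra2bKO libraries, against 17.0 to 21.2 CPM in controls (-0.77, SE 0.11, adjusted p = 0.00132, edgeR). In all 3 genes both Tra2bKO libraries were below every control. Hist1h1a had 4.146 and 4.501 CPM, inside the control range of 3.53 to 6.60 CPM, and was not called (log2 fold change -0.19, SE 0.23, adjusted p = 0.633, edgeR).

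In the H2A class 12 of 17 tested members fell, with log2 fold changes from -0.78 to -1.67. Hist1h2ap had 370 and 422 CPM in Tra2bKO libraries and 615 to 862 CPM (median 726) in controls, without overlap (-0.89, SE 0.11, adjusted p = 0.000604, edgeR). Its copy Hist1h2ao gave -0.88 (SE 0.10), and the other abundant genes were close to this, with -0.94 for Hist1h2ag, -0.97 for Hist1h2ah and -0.94 for Hist1h2ae. Hist3h2a, which had also been lower in controls than in naive cells, had 4.11 and 4.37 CPM in Tra2bKO libraries against 6.81 to 9.75 CPM in controls (-0.93, SE 0.16, adjusted p = 0.00348, edgeR). The value of -1.67 belongs to Hist2h2ab, at 0.154 and 0.0878 CPM in Tra2bKO libraries and 0.438 ± 0.162 CPM in controls (SD, n = 8).

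Of the 5 H2A members that were not called, Hist2h2ac gave -0.44 (SE 0.15, adjusted p = 0.0623, edgeR). The others, Hist1h2ac, Hist1h2ak, Hist2h2aa1 and Hist2h2aa2, varied widely between libraries. Hist2h2aa1 was listed at 0 in 1 Tra2bKO library and in 5 controls, and Hist1h2ac at 0 in control 3. Without control 3 the change of Hist1h2ac was -1.004 and was called (adjusted p = 0.0024, edgeR). Hist2h2aa1 and Hist2h2aa2 have the same coding sequence, so levels of the single genes are uncertain there.

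In the H2B class 12 of 18 tested members fell, by 0.62 to 0.95. Hist1h2bp had 2.58 and 2.48 CPM in Tra2bKO libraries and 4.30 to 6.14 CPM (median 4.86) in controls (-0.95, SE 0.17, adjusted p = 0.00358, edgeR). Hist1h2bm had 4.38 and 4.52 CPM in Tra2bKO libraries and 7.20 to 11.2 CPM in controls (-0.95, SE 0.18, adjusted p = 0.006, edgeR). Hist1h2bj had 6.495 and 7.574 CPM, below all controls at 9.72 to 12.9 CPM (-0.67, SE 0.14, adjusted p = 0.00751, edgeR). Hist2h2be had 3.03 CPM in each Tra2bKO library and 3.63 to 5.67 CPM in controls (-0.66, SE 0.19, adjusted p = 0.0326, edgeR). The members not called were Hist1h2ba, Hist1h2bf, Hist1h2bh, Hist1h2bn, Hist2h2bb and Hist3h2ba, with log2 fold changes from -0.27 to -0.73.

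In the H3 class 4 of 11 tested members fell. These were Hist1h3e (-0.59), Hist1h3g (-0.98), Hist1h3h (-0.76) and Hist2h3c2 (-1.16). In this order they share 59.4, 46.1, 93.5 and 62.6% of their windows of 75 bases with other histone genes. Levels of the single genes are therefore uncertain. Hist1h3b had 4.48 and 4.71 CPM in Tra2bKO libraries and 5.21 to 7.05 CPM in controls, a gap without overlap that did not pass (-0.41, SE 0.15, adjusted p = 0.0844, edgeR). Hist1h3d gave -0.38 (SE 0.16, adjusted p = 0.129, edgeR) and Hist1h3c -0.10 (SE 0.14, adjusted p = 0.68, edgeR). Hist1h3a, Hist1h3f and Hist1h3i gave -0.26 to -0.52. Hist2h3c1 differed between the Tra2bKO libraries, at 0.205 and 2.74 CPM, and was not called (-1.44, SE 0.78, adjusted p = 0.246, edgeR). Its transcript Hist2h3c1-202 was above 0 only in Tra2bKO library 1, controls 4, 5 and 7 and naive 8. The neighbouring gene Hist2h2aa1 was above 0 in the same libraries only, and Hist2h3c1-201 was at 0 in these except control 7. How estimates were assigned between these transcripts was not tested, so the levels of both genes are uncertain. The class median was -0.52, against -0.89 for H2A, -0.77 for H1, -0.71 for H2B and -0.58 for H4. These medians were not tested against each other.

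In the H4 class 6 of 13 members fell and 1 rose. Hist1h4d had 68.3 and 75.9 CPM in Tra2bKO libraries and 96.7 to 114 CPM (median 104) in controls (-0.54, SE 0.09, adjusted p = 0.00232, edgeR). Hist1h4h had 1.98 and 2.50 CPM in Tra2bKO libraries and 3.48 to 5.31 CPM in controls (-0.88, SE 0.19, adjusted p = 0.0109, edgeR). Hist1h4c, Hist1h4m, Hist1h4n and Hist4h4 fell by 0.50 to 0.80. The 6 members not called, Hist1h4a, Hist1h4b, Hist1h4f, Hist1h4j, Hist1h4k and Hist2h4, gave -0.32 to -0.77.

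Hist1h4i, an H4 gene on the minus strand of chromosome 13 (22040636 to 22041362), was the only member called higher in Tra2bKO cells. It had 32.7 and 29.7 CPM in Tra2bKO libraries, 18.2 to 22.3 CPM (median 19.4) in controls and 6.10 to 13.2 CPM (median 7.58) in naive libraries. The 3 groups did not overlap. Against controls the log2 fold change was 0.67 (SE 0.10, adjusted p = 0.00137, edgeR), a 1.59-fold difference. It was the only member called higher in each fit without the replicate number as a block, including those that left out 1 library, and its log2 fold change over all alternatives was 0.59 to 0.89. Its coding sequence is at most 96.8% identical to another member, and 22.4% of its windows of 75 bases are shared with other histone genes. As shown above, its loop is TTTT, its annotated end lies past the stem-loop, and its promoter window holds TATAAA but no CCAAT. Other H4 genes share each of these features.

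**Figure D3:**
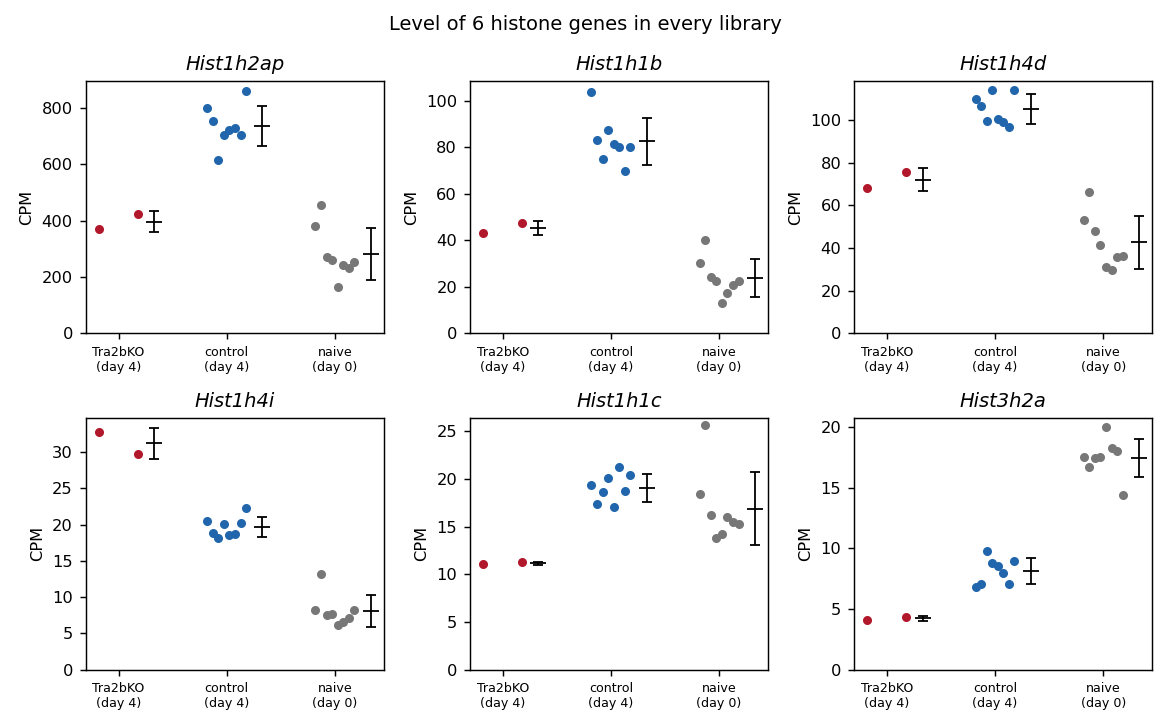
Level in CPM (vertical axes, from 0) of 6 histone genes in every library (points), with mean and SD beside each group; Tra2bKO, control and naive groups run from left to right. Hist1h2ap, Hist1h1b and Hist1h4d are lower in Tra2bKO than in control libraries, Hist1h4i is higher (32.7 and 29.7 CPM against 18.2 to 22.3 CPM), and Hist3h2a is lowest in Tra2bKO and highest in naive libraries.

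**Figure D4:**
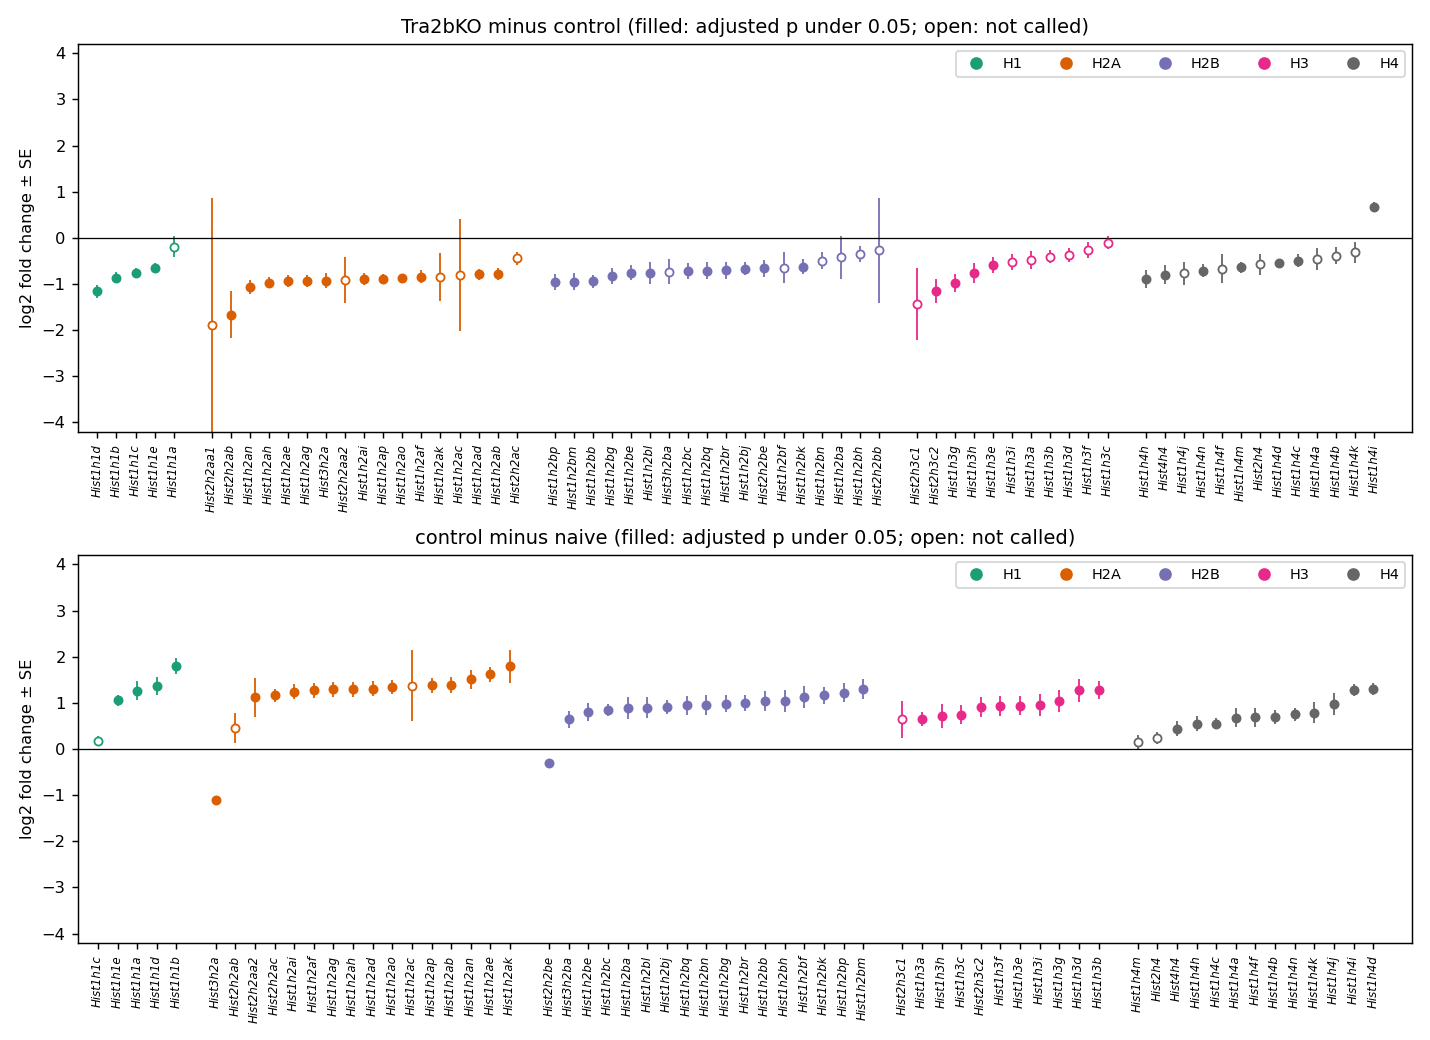
Log2 fold change with SE (vertical axis) of every tested histone gene, ordered within its class, for Tra2bKO minus control (upper panel) and control minus naive (lower panel). In the upper panel 63 of 64 genes lie below 0 and Hist1h4i lies above it; in the lower panel 60 of 62 lie above 0 and Hist3h2a and Hist2h2be lie below it. The lower error bar of Hist2h2aa1 runs past the axis.

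Set against naive cells, the Tra2bKO cells had 7 members higher, 3 lower and 53 not called of 63 tested, with a median of 0.35 (Tra2bKO minus naive). Over all 19776 genes tested 44.7% were called, 21.1% higher and 23.6% lower. The members called higher were Hist1h4i (1.98, SE 0.21, adjusted p = 1.49e-05, edgeR), Hist1h1a (1.10), Hist1h1b (0.96), Hist1h3b (0.90), Hist1h4d (0.79), Hist2h2ac (0.75) and Hist1h2ae (0.71). Those called lower were Hist3h2a (-2.01, SE 0.14, adjusted p = 6.51e-07, edgeR), Hist2h2be (-0.95) and Hist1h1c (-0.57). Hist1h2ap gave 0.52 (SE 0.27, adjusted p = 0.145, edgeR), with 370 and 422 CPM in Tra2bKO libraries inside the naive range of 163 to 456 CPM. Without naive 2, 19 members were called higher, and without naive 1 and naive 2, in a fit chosen after seeing the data, 28. The share of all genes called in these fits is not given here. Without Tra2bKO library 1, or without Tra2bKO library 2, 1 member was called higher. The comparison shares its libraries with the 2 others and is given beside them only.

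Of 25 genes of S phase, such as replication licensing factors and nucleotide synthesis enzymes, 1 rose and 4 fell in Tra2bKO against control cells, where 14.9% of all genes were called, and the median log2 fold change was -0.11. Rrm2, a subunit of ribonucleotide reductase, had 1306 and 1156 CPM in Tra2bKO libraries and 1654 to 1893 CPM in controls (-0.52, SE 0.07, adjusted p = 0.00064, edgeR). Fen1 (-0.29), Tk1 (-0.28) and Tyms (-0.22) also fell, and Uhrf1, which keeps DNA methylation at the replication fork, rose by 0.34. The summed S phase list stood at 12560 and 11880 CPM in Tra2bKO libraries, 12450 to 13860 CPM in controls and 3986 to 7266 CPM in naive libraries. The histone sum was 11.01 and 13.05% of the S phase sum in Tra2bKO libraries, 15.9 to 23.9% in controls and 16.4 to 24.1% in naive libraries. Both Tra2bKO libraries were thus below every other library in this ratio, which was not tested. The ratio compares captured RNA only and does not give histone RNA per cell in S phase. In control against naive cells all 25 S phase genes rose, with a median of 1.27, where 32.5% of all genes were called higher.

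Where 14.9% of all genes were called, 4 of 10 tested genes listed as replication-independent histone variants fell in Tra2bKO cells and none rose. How far each of them is made outside S phase, or from polyadenylated mRNA, was not tested. H2afx, whose phosphorylated protein marks DNA breaks, had 152 and 166 CPM in Tra2bKO libraries and 271 to 384 CPM in controls (-1.02, SE 0.12, adjusted p = 0.000462, edgeR). H1f0, the linker histone of resting cells, had 14.5 and 15.5 CPM in Tra2bKO libraries and 30.8 to 54.8 CPM in controls (-1.48, SE 0.18, adjusted p = 0.000598, edgeR). H2afz fell by 0.22 and H2afy2 by 3.17. H3f3a (-0.09) and H3f3b (-0.13), which encode the variant H3.3, and Cenpa (-0.02), the centromeric H3, were not called. Against naive cells, controls had 6 variants higher and none lower, where 32.5% of all genes were called higher and 39% lower.

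Of 23 genes of histone mRNA transcription and 3′ processing, 3 rose and 3 fell in Tra2bKO cells, with a median of 0.02. Over all genes tested, 14.9% were called in this comparison. Slbp, the stem-loop binding protein, had 723 and 614 CPM in Tra2bKO libraries and 661 to 753 CPM in controls, and was not called (-0.08, SE 0.07, adjusted p = 0.52, edgeR). Npat had 60.1 and 83.2 CPM in Tra2bKO libraries and 41.9 to 60.3 CPM in controls, overlapping ranges that passed the test (0.44, SE 0.13, adjusted p = 0.0423, edgeR). Casp8ap2 (0.34) and Cstf3 (0.36) rose as well. Cpsf3, the nuclease that cuts histone pre-mRNA, fell by 0.35, Srrt by 0.33 and Ccne2, a cyclin of S phase entry, by 0.48. Lsm10 (-0.31, adjusted p = 0.0557, edgeR) and Lsm11 (0.11) were not called. Of 15 poly(A) tail and cleavage factors, Cstf2t, Pcf11 and Wdr33 rose, by 0.54, 0.39 and 0.26, and none fell. In control against naive cells 18 of the 23 processing genes rose, Slbp among them (0.98, SE 0.07, adjusted p = 2.29e-09, edgeR), and 1 fell. There 32.5% of all genes were called higher and 39% lower.

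Of 24 histone chaperones, 1 rose and 5 fell in Tra2bKO cells, where 14.9% of all genes were called. Nasp, which binds and stores soluble H3 and H4 and linker histones, had 98.7 and 90.5 CPM in Tra2bKO libraries, 261 to 320 CPM in controls and 93.7 to 154 CPM in naive libraries. Both Tra2bKO libraries were below all controls (-1.54, SE 0.09, adjusted p = 3.11e-06, edgeR). Hat1, which acetylates new H4, fell by 0.56, and Dnajc9, Asf1b and Nap1l4 by 0.38, 0.35 and 0.28, while Atrx rose by 0.22. Against naive cells, controls had 20 chaperones higher and 2 lower, where 32.5% of all genes were called higher and 39% lower.

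**Figure D5:**
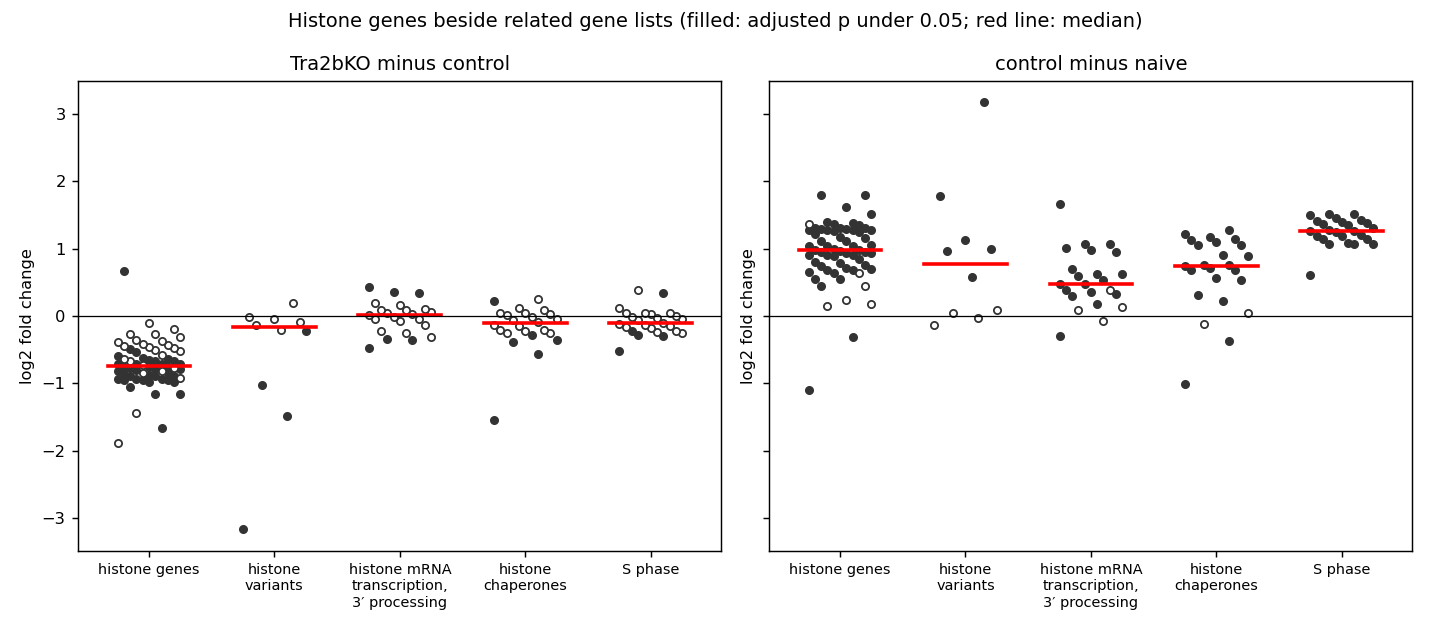
Log2 fold change (vertical axis) of each tested histone gene and of each tested gene of 4 related lists, for Tra2bKO minus control (left) and control minus naive (right); filled points passed the test and red lines are medians. On the left the histone genes have a median of -0.75 and the S phase genes one of -0.11; on the right the medians are 0.98 and 1.27.

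The deposited transcript counts were tested in the same way. In control against naive cells, 57 of 66 tested member transcripts were higher and 1 lower, where 45.3% of all 42291 transcripts were called. In Tra2bKO against control cells, 16 of 72 were lower and 1, Hist1h4i-201, was higher (0.66, SE 0.12, adjusted p = 0.0328, edgeR), where 1.43% of 50523 transcripts were called. The lower ones included Hist1h2ap-201 (-0.91), Hist1h1d-201 (-1.18) and Hist1h4d-201 (-0.56). These counts of calls rested on both Tra2bKO libraries: without library 1, 2 were lower and 0 higher, and without library 2, 4 were lower and 0 higher. Transcripts with more than 150 bases of annotated 3′ UTR were set against the other transcripts of the same gene where the gene had at least 10 counts in every library, which Hist1h2bq and Hist1h2br met. The long transcripts of these genes have several exons and no stem-loop match, so their share does not measure extension past the stem-loop. The share in transcripts with a long 3′ UTR was 71.8 ± 8.17% in Tra2bKO libraries (SD, n = 2), 74.9 ± 9.38% in controls and 71.4 ± 5.21% in naive libraries (SD, n = 8 each) for Hist1h2bq. For Hist1h2br it was 26.0 ± 24.0% in Tra2bKO libraries, 26.9 ± 22.7% in controls and 26.9 ± 22.0% in naive libraries. No difference passed an exact two-sided permutation test (p = 0.733 and 1 for Tra2bKO against control, 0.408 and 0.995 for control against naive).

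By kind of annotated 3′ end, the median log2 fold change (Tra2bKO minus control) was -0.75 for 22 tested genes that end within 100 bases of the stem-loop, -0.69 for 20 that end farther downstream and -0.80 for 14 without a 3′ UTR. In these sets 13, 11 and 8 genes were called lower, where 7.24% of all genes tested were called lower. These medians were not tested against each other.

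Markers of other cells differed between the groups. The 5 erythroid genes, globins and Alas2, were all called higher in Tra2bKO than in control cells. Their sums were 132 and 13.4 CPM in Tra2bKO libraries, 0.443 to 17.3 CPM in controls and 2.02 to 40.8 CPM in naive libraries. The sum in Tra2bKO library 2, 13.4 CPM, lay within the control range. The 8 dendritic and myeloid markers summed to 87.8 and 74.9 CPM in Tra2bKO libraries, 28.9 to 53.0 CPM in controls and 95.9 to 181 CPM in naive libraries, with 0 of the 6 tested called between Tra2bKO and control, and Siglech at 0 in both Tra2bKO libraries. The 8 B cell markers summed to 9.28 and 4.87 CPM in Tra2bKO libraries, 6.97 to 15.3 CPM in controls and 24.9 to 74.3 CPM in naive libraries, with Ebf1 at 0 in both Tra2bKO libraries. The 5 NK cell markers were all lower in controls than in naive libraries (5.41 to 14.8 against 49.7 to 97.9 CPM). The 4 CD4 T cell markers summed to 4.71 and 3.77 CPM in Tra2bKO libraries, 4.42 to 20.8 CPM in controls and 4.13 to 6.07 CPM in naive libraries. Their log2 fold changes (Tra2bKO minus control) ran from -2.13 to 0.89, and 1 of the 4 was called. This was Zbtb7b, a transcription factor of CD4 T cells, which was lower in Tra2bKO cells (-2.13, SE 0.43, adjusted p = 0.00719, edgeR). The part of these cells in the histone differences was not tested. CD8 T cell markers were present throughout, with sums of 4906 and 4232 CPM in Tra2bKO libraries, 4165 to 5015 CPM in controls and 6775 to 8145 CPM in naive libraries. On the first principal component of the controls, their main axis of spread (17.6% of variance), controls 1 and 2 had the highest values, 71.06 and 53.55. Control 3 followed at 11.69, and control 4 lay at the other end at -49.62, so the 2 were not clearly set apart. Against controls 3 to 8 alone 36 members were lower and 1 higher in Tra2bKO cells.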

How the data were processed

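The deposited tables hold estimated counts per gene and per transcript, written by the authors as whole numbers, from polyA-based libraries. Per the submitters' processing notes, the tools were StringTie (2.1.0), STAR (2.7.1a), DESeq2 (1.30.1), SAMtools (1.9) and R (4.0.5), with the builds mm39 and mm10 and no role for either. How estimates were split between near-identical genes is not given in the sources used here. All gene identifiers used are in GENCODE M21, so coordinates are in GRCm38. Rows that name no gene (26345, with 0.0513 to 0.132% of counts) were left out. Total counts of 68249844 to 93972513 per library set the precision, and limits from a count of 0 cover counting error only.

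Groups were compared with edgeR 4.0.16 in R 4.3.3 (robust quasi-likelihood test, TMM, filterByExpr with a minimum count of 10, prior count 2) over all genes or transcripts, with only the groups compared in the fit. Calls were made at a Benjamini-Hochberg adjusted p under 0.05, and SE is the log2 fold change over the square root of the test's F. Each adjusted p in the report comes from this test. The members, the gene lists and the tests were chosen with earlier results of these data known. Members are named in full when they had the highest level or the largest change of a class among those averaging at least 1 CPM. The Hist1h2ac, Hist1h2ak, promoter and A-content descriptions were chosen after their values were seen. The fits were tested on simulated data. Alternatives were RLE factors, total counts, other filters, limma 3.58.1 voom, DESeq2 1.42.0, all groups in one fit, a replicate block, removal of a length and GC trend, controls 3 to 8 and leaving out each library.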

Additional observations from a re-analysis of the deposited data

Results flagged for a closer look

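In groups of 8 libraries, single libraries stood far from the rest of their group in 8 gene levels and 2 class sums. Chance marks about 1 group of values in 20, and 56 were examined. Most of these values belong to naive 2, which was the highest naive library for Hist1h1d at 14.4 CPM (next 7.70), Hist1h3b at 4.90 (next 2.99), Hist1h4h at 4.89 (next 2.95) and Hist1h4i at 13.2 CPM (next 8.21). The summed level of H2B genes there was 89.9 CPM (next 57.6) and that of H3 genes 44.2 CPM (next 28.6). The S phase list was also highest in naive 2, at 7266 CPM, of the naive libraries, and the part of cycling cells in this was not tested.

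Hist1h2ak was highest in naive 1 at 28.6 CPM (next 16.2). Hist2h2aa1 was at 2.79 CPM in naive 8 and at 0.0 in the other naive libraries. Naive 8 was also the only naive library with Hist2h3c1-202 above 0 and with Hist2h3c1-201 at 0. In the controls, Hist1h1d was lowest in control 7 at 14.2 CPM (next 17.96), and Hist1h2bp was highest in control 8 at 6.14 CPM (next 5.16).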

How the results depend on the processing

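Every control against naive count of called members or member transcripts stayed within 1.5 times of its value under every alternative run, with 53 to 56 genes and 54 to 60 transcripts higher, and 2 genes and 1 transcript lower, when single libraries were left out. For Tra2bKO against control, 38 lower members became 20 with all groups in one fit and 22 with protein-coding genes only and the length and GC trend removed (chosen after seeing the data), and 28 under voom and 43 under DESeq2. Leaving out single libraries gave 21 to 38 lower and 1 higher gene, and 2 to 15 lower and 0 to 1 higher transcripts. With the replicate number as a block, with or without the length and GC trend removed, 0 members and 0 transcripts were called in either direction, and 0% of all genes. The block keeps only libraries whose number occurs in both groups, here controls 1 and 2 and the 2 Tra2bKO libraries. With so few libraries the fit could call little, so its 0 calls do not show an effect of pairing. Against naive cells the block likewise keeps only naive 1 and 2. The transcript block was run without the trend. The numbers share no stated source, same-numbered libraries had correlations of -0.025 to 0.032 (control and naive, 1 of 8 highest with its own number) and 0.011 and 0.051 (Tra2bKO and control), and the pairing was therefore not used. For Tra2bKO against naive, 7 higher members became 1 with the block, 2 with the block and the trend removed, 25 with the trend removed, 13 with protein-coding genes and the trend removed, 28 with naive 3 to 8 and 1 to 19 without single libraries, with 2 to 3 lower. The cause of these moves was not tested. Apart from the block against controls, the share of all genes called under the alternatives is not given here.

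Tra2b passed against controls with the trend removed (-0.62, adjusted p = 0.0166, edgeR), with protein-coding genes only and the trend removed (-0.60, adjusted p = 0.0112), with controls 3 to 8 (-0.37, adjusted p = 0.00901) and without control 2 (-0.40, adjusted p = 0.00803), and ranged from -0.40 to -0.31 without single libraries. Against naive it was 0.37 (adjusted p = 0.009), at 0.37 (adjusted p = 0.100) with the block and 0.23 (adjusted p = 0.241) with block and trend, and 0.31 to 0.41 without single libraries, not passing without Tra2bKO library 1 (0.36, adjusted p = 0.0626) or library 2 (0.37, adjusted p = 0.0561). Single members changed sign as follows. Against controls, Hist1h1a was 0.038 with the trend removed and 0.058 with protein-coding genes only and the trend removed. Against naive, the block kept only naive 1 and naive 2, which had the highest naive histone sums (1366 and 1754 CPM). With this changed set of libraries it gave -0.25 for Hist1h1d, -0.083 for Hist1h2ap, -0.31 for Hist1h2bj, -0.35 for Hist1h2bm and -0.43 for Hist1h2bp. The block with the trend removed gave -0.39 for Hist1h1d, -0.026 for Hist1h2bj, -0.10 for Hist1h2bm and -0.29 for Hist1h2bp, and the trend alone 0.10 for Hist1h4h. Without Tra2bKO library 1, Hist2h2aa1 was -3.90 and Hist2h3c1 0.080, and without Tra2bKO library 2 Hist2h3c1 was -3.46. In Tra2bKO library 1 Hist2h3c1-201 was at 0 and Hist2h2aa1 above 0, as described above. No gene had its share of transcripts with a long 3′ UTR called in either comparison under the alternatives run. With 1 Tra2bKO library left out, the permutation test had too few splits for any difference to pass. Depth limits members under 1 CPM, and reads shared between near-identical copies limit single H2A, H2B, H3 and H4 genes.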

Other observations

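The annotated pseudogene Hist1h2aj, left out of the members, had histone-like levels. It stood at 41.3 and 58.6 CPM in Tra2bKO libraries, 78.0 to 137 CPM (median 89.6) in controls and 18.3 to 50.9 CPM (median 32.1) in naive libraries. The controls were above all other libraries. The log2 fold change was -0.98 for Tra2bKO minus control (SE 0.23, adjusted p = 0.0143, edgeR) and 1.58 for control minus naive (SE 0.18, adjusted p = 2.57e-07, edgeR). How far Hist1h2aj shares reads with the H2A members was not measured, so its level is uncertain. The pseudogenes Hist1h2al and Hist3h2bb-ps averaged 0.287 and 0.511 CPM in controls.

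Most of the member signal in controls came from 3 genes of 1 class. Hist1h2ap held 28.0% of the summed member level, Hist1h2ao 16.6% and Hist1h2ag 9.65%, which together gave 54.3%.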
